A study of Homo sapiens with 6 samples.

Results

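The CEACAM genes code for carcinoembryonic antigen-related cell adhesion molecules, and 9 of them (CEACAM1, CEACAM3, CEACAM4, CEACAM5, CEACAM6, CEACAM7, CEACAM8, CEACAM19 and CEACAM21) were followed here in Caco2 cells. Every probe set annotated to 1 of these genes alone was taken, which gave 20 of the 54613 probe sets that are not controls and 9 of the 19775 genes named on the array. The family was picked because of its signals in resistant and parental cells, so the difference between these groups is described for its members without a test. Caco2 is an established line from a human colon cancer whose cells can take on features of absorptive enterocytes. The resistant group held 3 samples of Caco2 cells that grow in 10 µM methotrexate (MTX), an antifolate, and the parental group held 3 samples of the MTX-sensitive cells they came from. Resistant cells had been selected by stepwise MTX exposure and were grown with dialyzed serum in a medium without glycine, hypoxanthine and thymidine, while parental cells were grown in Ham's F12, so that resistance, drug and medium cannot be told apart. It is not stated whether the resistant cells are 1 clone, nor whether each group's triplicates were grown apart, and p-values therefore reflect no more than the spread of the triplicates, which may be technical.

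CEACAM proteins carry immunoglobulin-like domains and bind each other and bacterial adhesins at the cell surface. CEACAM5 (the carcinoembryonic antigen itself), CEACAM6, CEACAM7 and CEACAM8 are held in the membrane by a glycosylphosphatidylinositol (GPI) lipid anchor, whereas CEACAM1, CEACAM3, CEACAM4, CEACAM19 and CEACAM21 cross it. In the normal colon CEACAM1, CEACAM5, CEACAM6 and CEACAM7 are found at the apical surface of mature epithelial cells, and CEACAM3, CEACAM4 and CEACAM8 are known from granulocytes.

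All 9 genes lie on the long arm of chromosome 19, in the order CEACAM21, CEACAM4, CEACAM7, CEACAM5, CEACAM6, CEACAM3, CEACAM1, CEACAM8 and CEACAM19. No other annotated gene separated CEACAM7 from CEACAM5 or CEACAM5 from CEACAM6. RefSeq promoter sequences (GRCh38.p14) were at hand for 8 of the 9 genes, in 9 entries because CEACAM21 had 2 starts. The 130 bases that end just before the start of the gene are shown for the 3 adjacent genes CEACAM7, CEACAM5 and CEACAM6, and for CEACAM3 and CEACAM1 as the next members along the chromosome. Capitals mark the run AATGAGAGGGGAGGGGA, or the longest stretch of at least 15 bases of it, and the E-box CACGTG, a sequence that reads the same on both strands and that the factors USF1 and USF2 are known to bind in the CEACAM5 promoter.
CEACAM7, chr19:41688271-41688400, minus strand: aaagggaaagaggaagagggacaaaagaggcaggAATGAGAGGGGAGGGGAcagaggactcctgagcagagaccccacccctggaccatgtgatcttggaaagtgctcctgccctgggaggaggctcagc
CEACAM5, chr19:41708496-41708625, plus strand: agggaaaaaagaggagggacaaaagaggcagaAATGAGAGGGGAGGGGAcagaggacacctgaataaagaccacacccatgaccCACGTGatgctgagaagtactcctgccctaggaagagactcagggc
CEACAM6, chr19:41755400-41755529, plus strand: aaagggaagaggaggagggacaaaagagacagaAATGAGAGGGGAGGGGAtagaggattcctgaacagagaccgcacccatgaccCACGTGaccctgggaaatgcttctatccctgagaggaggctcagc
CEACAM3, chr19:41796457-41796586, plus strand: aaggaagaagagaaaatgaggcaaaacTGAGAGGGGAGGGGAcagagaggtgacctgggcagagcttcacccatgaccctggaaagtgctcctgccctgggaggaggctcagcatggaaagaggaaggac
CEACAM1, chr19:42528482-42528611, minus strand: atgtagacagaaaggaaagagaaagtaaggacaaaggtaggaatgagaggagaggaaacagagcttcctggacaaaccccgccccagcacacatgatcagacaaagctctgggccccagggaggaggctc
Over the 250 bases before the start, the promoters of CEACAM7 and CEACAM5 were identical in 80.5% of aligned columns, those of CEACAM7 and CEACAM6 in 79.0% and those of CEACAM5 and CEACAM6 in 73.6%. Such likeness was not confined to these 3 genes. The second start of CEACAM21 and CEACAM7 were identical in 75.1%, CEACAM4 and CEACAM7 in 70.1%, and CEACAM7 and CEACAM1 in 70.0%. The lowest pair, the first start of CEACAM21 and CEACAM6, was at 42.9%. The run of 17 bases was picked as the longest one common to the promoters of CEACAM7, CEACAM5 and CEACAM6, so its share carries no test. Among all 35116 promoters of the same length it occurred in only these 3 (0.00854%). CEACAM4 held 16 bases of it, and CEACAM3, CEACAM8 and the second start of CEACAM21 held 15, whereas no such stretch lay before CEACAM1 or the first start of CEACAM21. The E-box occurred in 2 of the 9 entries, CEACAM5 and CEACAM6, with its first base 46 and 45 bases before the start, and in 6.34% of all promoters. A GC box (GGGCGG, either strand), the type of sequence bound by SP1, was present in 5 of the 9 entries, against 42.6% of all promoters, and TATAAA (either strand) was present in 1 of the 9, CEACAM6, against 10.7%. These matches describe letters only, and binding was not measured.

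Signals are given as multiples of the median signal of their own array, which was 11.1, 10.6 and 11.5 signal units on the resistant arrays and 11.1, 12.8 and 11.3 on the parental arrays. Of the 20 member probe sets, 13 averaged at least 1 array median over the 6 arrays and entered the limma fit, and the other 7, among them all probe sets of CEACAM4, CEACAM8 and CEACAM21, did not. The array correlations among resistant samples were 0.968 to 0.971, whereas parental 3 correlated with the other parental arrays at 0.949 and 0.946. Of 8 markers of intestinal epithelium, 6 lay above the array median on all arrays, with summed levels of 2058 to 2126 in resistant and 1459 to 1911 in parental cells, while CDX2, an intestinal transcription factor, stayed between 0.088 and 1.14. None of 6 granulocyte markers, such as MPO, lay above the median on all arrays, and their summed levels were 2.74 to 3.62 in resistant and 3.71 to 3.94 in parental cells. The 5 leukocyte markers summed to 501 to 558 in resistant and 300 to 360 in parental cells, nearly all of it LYZ (lysozyme, 493 to 548 in resistant and 282 to 352 in parental cells), while the leukocyte antigen PTPRC was at most 0.94 in any sample. The 4 fibroblast markers summed to 6.93 to 7.71 in resistant and 4.51 to 5.29 in parental cells. Of these, LUM (lumican) gave 3.27, 2.92 and 1.5 in resistant cells, against 0.198, 0.352 and 0.265 in parental cells (log2 difference 3.20, limma adjusted p = 0.00717). LUM entered the fit only through its resistant signals, since its parental signals lay well below the array median. COL1A1, a collagen chain, did not pass at -0.15, and the part of these other transcripts in the CEACAM signals was not tested. The RNA came from whole cultures, so fewer cells with a transcript and less of it per cell cannot be told apart.

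The plainest difference in the family was that of CEACAM5 and CEACAM6. The CEACAM5 probe set 201884_at gave 21.9, 24.3 and 28.9 times the array median in resistant cells, against 0.432, 0.719 and 1.81 in parental cells. All resistant arrays stood above all parental ones, and the lowest resistant signal was 12.1 times the highest parental one. The log2 difference was 4.91 ± 0.42 (limma's moderated SE, n = 3 each), or 30.2-fold. Every SE given here is of this kind and draws on the spread of other probe sets as well as on the arrays of its own. The SD of the log2 signals of 201884_at within the groups was 0.75. The parental signals lay near or below the array median, where a ratio depends on how low signals are treated, and with an offset of 0.5 array medians added to every signal the fold was 18.4. Parental 3 carried 2.51 times the signal of the higher of the other parental arrays, and without it the log2 difference was 5.48. The second CEACAM5 probe set, 217291_at, lay near the array median and differed far less, at 1.51, 1.87 and 2.34 in resistant cells, against 1.41, 0.969 and 0.628 in parental cells (log2 difference 0.98 ± 0.40). Its groups did not overlap either, but the margin between the nearest arrays was only 1.07-fold, and here parental 3 was the lowest array. The 2 probe sets of CEACAM5 thus gave the same direction with different sizes, and which transcripts each of them reads was not examined.

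CEACAM6, an adhesion molecule closely related to CEACAM5, was read by 2 probe sets that gave nearly the same picture. With 211657_at the signals were 74.2, 69.0 and 98.5 in resistant cells, against 4.66, 3.66 and 9.15 in parental cells. With 203757_s_at they were 44.0, 44.0 and 63.9 in resistant cells, against 2.52, 1.77 and 5.68 in parental cells. On both, resistant 3 was the brightest array of all and parental 3 the brightest of the parental arrays, and the groups were far apart. The log2 differences were 3.89 ± 0.30 (14.8-fold) and 4.08 ± 0.36 (16.9-fold), and the lowest resistant signal was 7.54 and 7.74 times the highest parental one. Unlike CEACAM5, CEACAM6 lay above the array median on every parental array, and with the offset of 0.5 the fold of 211657_at was 13.5.

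CEACAM7, an adhesion molecule of the colonic epithelium and the neighbour of CEACAM5 on the other side, also had higher signals in resistant cells. Its probe set 206199_at gave 3.07, 2.31 and 7.30 in resistant cells, against 1.35, 1.5 and 1.06 in parental cells, a log2 difference of 1.53 ± 0.40 (2.89-fold). The other probe sets did not reach the level needed for the fit. They gave 1.45, 0.821 and 2.45 in resistant cells, against 0.459, 0.227 and 0.0531 in parental cells for 206198_s_at. For 211848_s_at they gave 0.856, 1.58 and 2.29 in resistant cells, against 0.108, 0.727 and 0.301 in parental cells. On all 3 probe sets of CEACAM7 the groups did not overlap, and resistant 3 was the highest array each time. Without resistant 3 the log2 difference of 206199_at was 1.05, and without resistant 2 it was 1.87.

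CEACAM8, the remaining GPI-anchored member and a surface marker of granulocytes, was near the floor of the array. Its single probe set gave 0.0360, 0.0943 and 0.130 in resistant cells, against 0.577, 0.391 and 0.124 in parental cells. The groups overlapped through parental 3, and signals this far below the array median do not allow a fold.

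CEACAM1, which has an inhibitory cytoplasmic tail in its long isoforms, was read by 5 probe sets, 4 of which lay well above the array median in both groups. The probe set 209498_at gave 46.9, 43.8 and 53.2 in resistant cells, against 32.7, 31.7 and 39.7 in parental cells. Every resistant array was above every parental one, but by little, with a log2 difference of 0.47 ± 0.14 (1.38-fold). The probe set 211889_x_at gave 21.6, 18.9 and 21.2 in resistant cells, against 13.7, 11.3 and 13.1 in parental cells (0.69 ± 0.15, 1.62-fold), and 206576_s_at gave 13.7, 14.9 and 15.5, against 11.9, 9.15 and 12.1 (0.42 ± 0.16). Neither overlapped between the groups. On 211883_x_at the signals were 20.7, 17.1 and 27.0 in resistant cells, against 15.2, 14.4 and 19.9 in parental cells, and on 210610_at, near the array median, they were 1.79, 3.87 and 2.37, against 2.82, 1.15 and 1.12. On these last probe sets the groups overlapped, with log2 differences of 0.38 ± 0.20 and 0.73 ± 0.42. An _x_at probe set can also detect transcripts of other genes and an _s_at probe set several transcripts of 1 family, and the part of this in the CEACAM signals was not tested.

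CEACAM3, a receptor of granulocytes for the uptake of bacteria, overlapped between the groups on all 3 of its probe sets. The signals of 208052_x_at were 1.86, 0.689 and 1.49 in resistant cells, against 1.06, 1.85 and 1.99 in parental cells (log2 difference -0.35 ± 0.45). Those of 210789_x_at were 2.03, 1.42 and 1.26 in resistant cells, against 1.59, 0.375 and 0.425 in parental cells (1.28 ± 0.60). The probe sets differed in sign, and 217209_at, at 0.180, 0.972 and 1.26 in resistant cells against 0.856, 0.516 and 1.16 in parental cells, did not enter the fit. CEACAM19, a little studied member at the far end of the order, gave 2.37, 3.31 and 2.81 in resistant cells, against 3.03, 3.03 and 2.71 in parental cells (-0.06 ± 0.22). Resistant arrays fell on both sides of the parental ones. CEACAM4 gave 0.667, 0.368 and 0.817 in resistant cells, against 0.405, 0.109 and 0.283 in parental cells, and the groups overlapped. The 2 probe sets of CEACAM21 lay between 0.0450 and 0.965 in resistant and between 0.0631 and 0.566 in parental cells and overlapped as well.

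**Figure D1:**
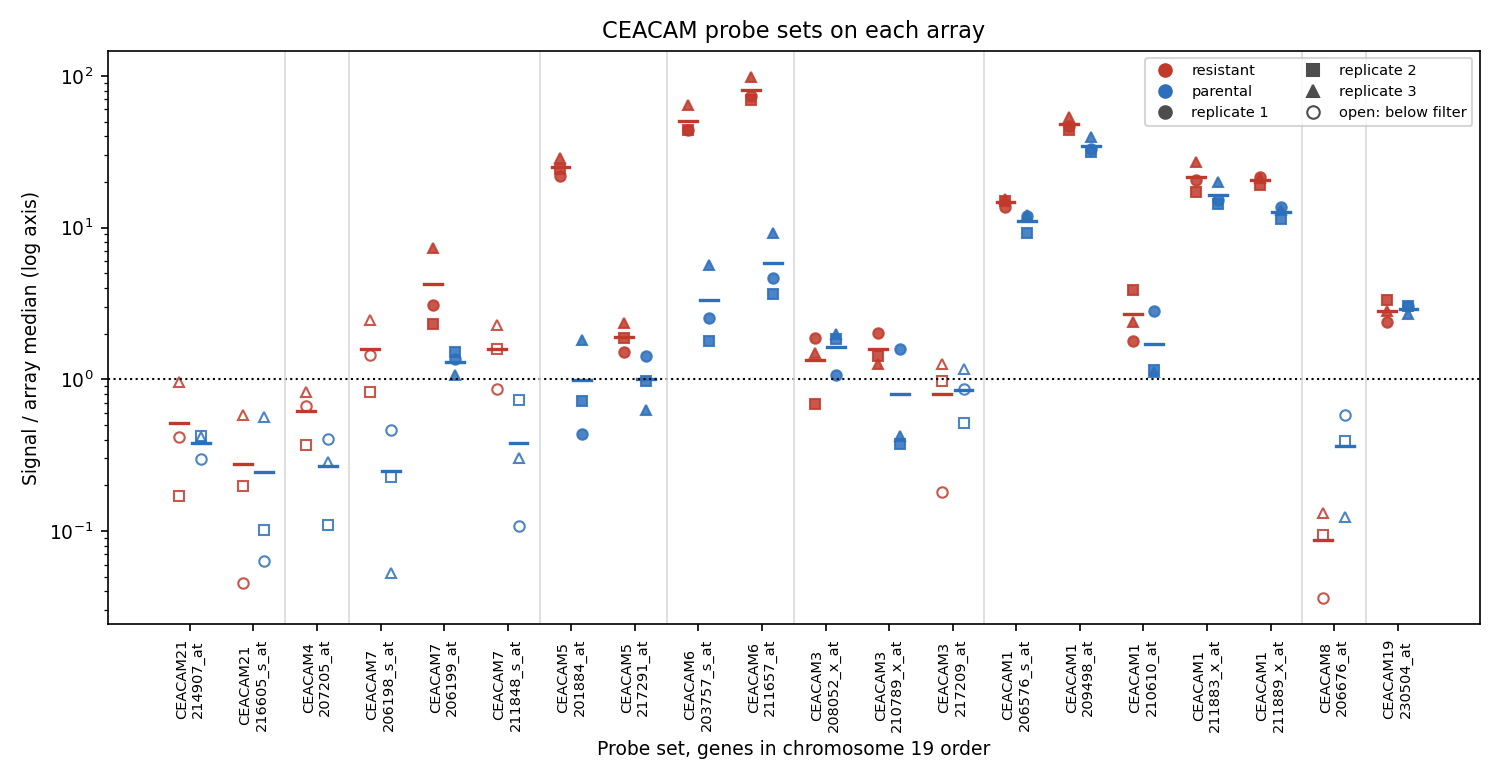
Signal of each CEACAM probe set as a multiple of the array median (log axis), with resistant arrays in red to the left of parental arrays in blue. Marker shape gives the replicate, horizontal bars the group means (n = 3 each), and open markers the probe sets below the filter. The 2 probe sets of CEACAM6 and 201884_at of CEACAM5 show the widest gaps between the groups.

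Counted over the family, 5 of the 13 probe sets in the fit passed an adjusted p of 0.05 as higher in resistant cells in limma (Benjamini-Hochberg over all 26563 probe sets), 4 of them at 2-fold or more, and 0 as lower. Over all probe sets tested, 5.75% passed as higher (2.77% at 2-fold or more) and 4.27% as lower. The 5 were 201884_at of CEACAM5, both probe sets of CEACAM6, 206199_at of CEACAM7 and 211889_x_at of CEACAM1. On 8 of the 13 all resistant arrays were above all parental arrays, and on 0 all were below, against 17.7% and 14.4% of all probe sets tested. These counts follow from how the family was picked and carry no test. The filter bears on them as well. Of the 13 probe sets, 2 had a parental mean below the array median and entered through their resistant signals. These were 201884_at of CEACAM5 (parental mean 0.985), which is among the 5 that passed, and 210789_x_at of CEACAM3 (0.795). A resistant mean below the array median was found in 0 of the 13. The count ranged from 3 (without resistant 1, and without resistant 3) to 7 (without parental 3, when 206576_s_at and 209498_at of CEACAM1 passed as well). At an unadjusted p of 0.05, limma gave 8 of the 13 member probe sets higher and 0 lower, against 14.6% and 12.3% of all probe sets tested. The methods' t-test gave 7 of the 13 higher and 0 lower, against 12.3% and 9.53%. After adjustment the methods' t-test passed no member, but 201884_at of CEACAM5 and both probe sets of CEACAM6 passed in every other alternative that kept them. The study's control strength filter and error model were not reproduced, so whether its own procedure calls a member was not tested here. The probe set 211889_x_at was lost without any 1 of the resistant arrays and without the intensity trend. The probe set 206199_at was lost without resistant 1, resistant 3, parental 1 or parental 2. It was also lost with other filters, without the trend and with the replicate block. The 16 probe sets of the pregnancy-specific glycoproteins (PSG), the other branch of the family on chromosome 19, lay between 0.027 and 2.03 in all samples. Only 3 of them entered the fit and 0 passed, also at an unadjusted p of 0.05 by limma or the methods' t-test.

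**Figure D2:**
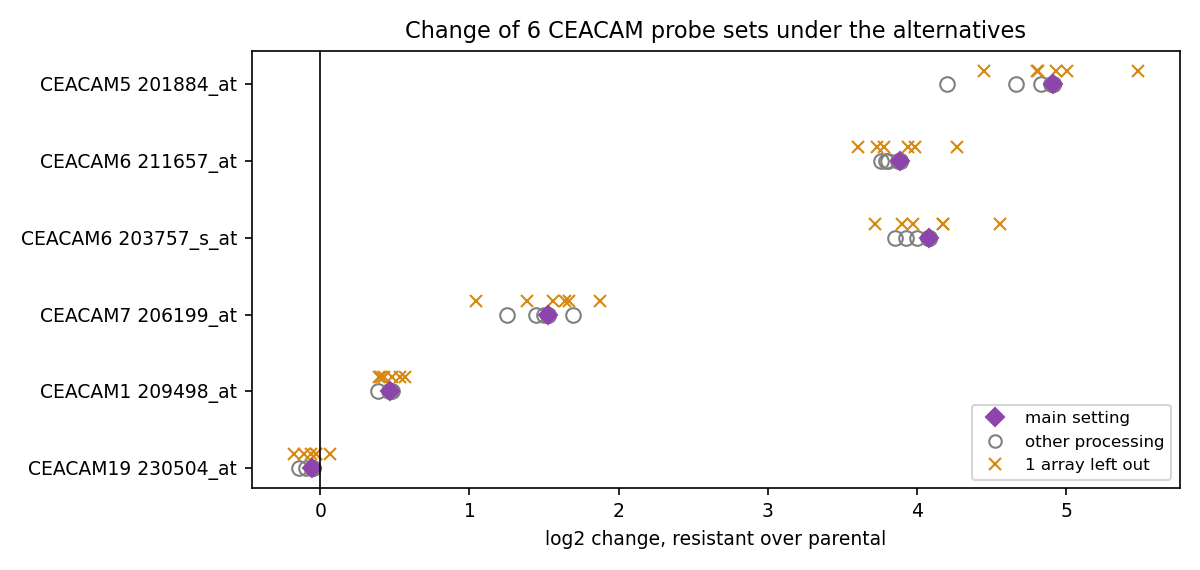
Log2 difference, resistant over parental, of 6 CEACAM probe sets in the main setting (diamonds), under other processing (open circles) and with 1 array left out (crosses). CEACAM5 ranged between 4.20 and 5.48 and 211657_at of CEACAM6 between 3.61 and 4.27, while CEACAM19 lay on both sides of 0.

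Among probe sets of different members the shape over the 6 arrays was most alike for 201884_at of CEACAM5 and 211657_at of CEACAM6, with Pearson's r of 0.989. The 2 probe sets of CEACAM6 had r = 0.999 with each other. The second CEACAM5 probe set, 217291_at, was less alike, with r = 0.649 with 201884_at and 0.707 with 211657_at. The CEACAM7 probe set 206199_at had r = 0.792 with 201884_at and 0.818 with 211657_at, and 209498_at of CEACAM1 had r = 0.937 and 0.952. CEACAM19 had r = -0.25 and -0.27. All these values share the difference between the groups and the same 6 arrays, and they are descriptions. Over all genes the profiles most like that of CEACAM5 were those of CRLS1 (a cardiolipin synthase), TSPAN5 (a tetraspanin), PRKACB (a catalytic subunit of protein kinase A), ENC1 and SDR16C5, with r of 0.998 to 0.999. Their own log2 differences were between 0.50 and 2.86, so that likeness of shape did not go with likeness of size. For CEACAM6 they were TUBA1A (an alpha-tubulin), ATP2A3 (a calcium pump of the endoplasmic reticulum), WDR72, REEP6 and UQCRC2 (a subunit of respiratory complex III), also with r of 0.998 to 0.999 and log2 differences of 0.68 to 2.55. An r of at least 0.95 was reached by 443 genes with CEACAM5 and 539 with CEACAM6.

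Genes around the family were compared to see how far the difference extended along the chromosome. From 10 genes before CEACAM21 to 10 genes after CEACAM19 there were 149 genes that are not members, of which 82 were on the array and 51 were tested. Of these, 1 was higher in resistant cells, 2 were lower and 48 did not pass, against 7.37% higher and 5.05% lower of the 11849 genes tested. Their median log2 difference was -0.25, against 0.02 over all genes. Another probe set could change a call. By their brightest ones IRGQ and PVR did not pass at -0.81 and -0.65, but 1 of 4 probe sets of IRGQ and 1 of 6 of PVR passed. The lowest values of these genes were -1.42 and -0.88. Within the stretch from CEACAM21 to CEACAM3, which holds CEACAM5 and CEACAM6, no gene other than a member was tested. The nearest tested gene before it was DMAC2, a mitochondrial complex I assembly factor, at -0.36 ± 0.14 (limma adjusted p = 0.125), and the nearest after it was RPS19, a protein of the small ribosomal subunit, at 0.26 ± 0.09 (adjusted p = 0.0859). Neither passed, and both passed without parental 3. Their probe sets disagreed in size or direction: averaged over a gene's probe sets DMAC2 passed at -0.47 (adjusted p = 0.0481), whereas RPS19 was at -0.07.

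The gene that rose was RABAC1, a Rab acceptor of the Golgi, at 45.9, 45.2 and 49.9 in resistant cells, against 26.0, 24.3 and 33.7 in parental cells (0.76 ± 0.15, limma adjusted p = 0.0136, range over alternatives 0.000211 to 0.111). ZNF576, a zinc finger gene, fell to 5.67, 5.45 and 7.87 in resistant cells, against 10.1, 9.67 and 10.4 in parental cells (-0.69 ± 0.18, adjusted p = 0.0414, range 0.0244 to 0.180). The other tested probe set of ZNF576 was at 0.10, and with the mean of both the log2 difference was -0.29 and did not pass. BCAM, the Lutheran adhesion molecule and itself a member of the immunoglobulin superfamily, fell to 3.84, 3.25 and 4.74 in resistant cells, against 6.03, 7.24 and 6.07 in parental cells (-0.72 ± 0.20, adjusted p = 0.0459, range 0.0210 to 0.170). The groups did not overlap for any of the 3, and their differences were small beside those of CEACAM5 and CEACAM6. The counts rested on single arrays, with 3 higher and 10 lower without parental 3, 0 higher and 0 lower without resistant 1, resistant 2 or parental 1, 0 higher and 1 lower without resistant 3, and 1 of each without parental 2.

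**Figure D3:**
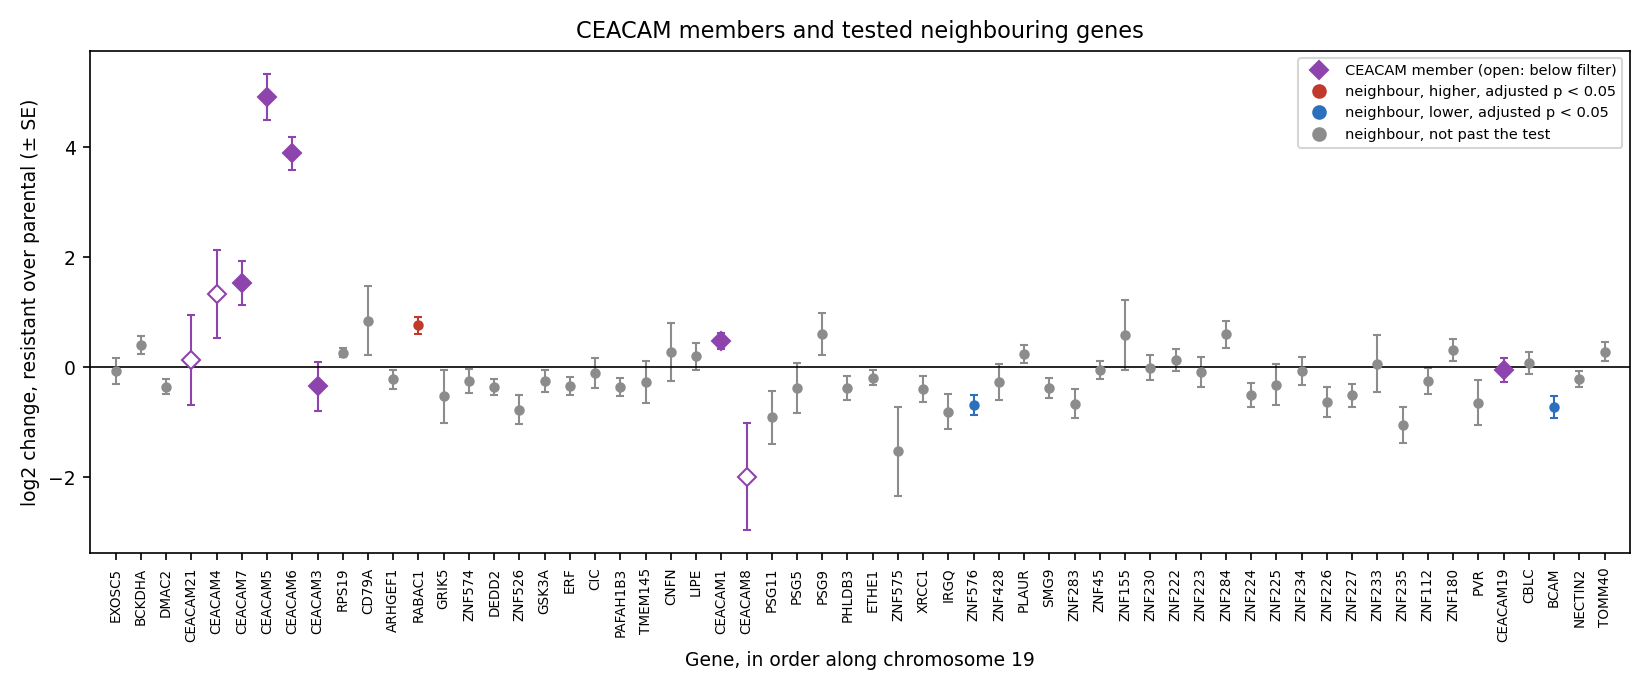
Log2 difference, resistant over parental (± limma's moderated SE, n = 3 each), in order along chromosome 19, evenly spaced. Diamonds are the CEACAM genes (brightest probe set, open where below the filter) and circles the tested neighbouring genes. CEACAM7, CEACAM5 and CEACAM6 stand side by side at 1.53, 4.91 and 3.89, and the median of the neighbours is -0.25.

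Genes tied to the family by function were read from lists compiled with earlier results of these data known. GPI anchors are built in the endoplasmic reticulum by the PIG proteins and are shared by CEACAM5, CEACAM6 and CEACAM7 with many other surface proteins. Of 29 genes of anchor synthesis 27 were tested, 3 were higher in resistant cells and 1 was lower, with a median of 0.10. Over all genes tested, 7.37% passed as higher and 5.05% as lower. PIGZ, a mannosyltransferase, was higher (1.13 ± 0.23, limma adjusted p = 0.0160), as were PIGU, a part of the transamidase that attaches the anchor (0.75 ± 0.21, adjusted p = 0.0483), and PIGP (0.60 ± 0.14, adjusted p = 0.0273), while PIGO, an ethanolamine phosphate transferase, was lower (-0.72 ± 0.19, adjusted p = 0.0456). The count of higher genes fell to 0 without any 1 of the resistant arrays and to 1 without parental 2, and was 5 without parental 3. The count of lower genes was 2 without parental 3 and 0 without any 1 of the others.

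Other GPI-anchored proteins changed in both directions. Of 30 listed 21 were tested, 3 were higher and 4 lower, against 7.37% and 5.05% of all genes, with a median of -0.01. GPC4, a glypican, gave 7.34, 6.39 and 6.36 in resistant cells, against 1.77, 1.13 and 1.37 in parental cells (2.25 ± 0.23, limma adjusted p = 0.000373). CD24, a small sialoglycoprotein, gave 507, 498 and 510, against 110, 104 and 125 (2.16 ± 0.10, adjusted p = 2.55e-06), on a probe set of the _x_at type. VNN1, a pantetheinase, was higher (1.39 ± 0.19, adjusted p = 0.00209). NT5E, the ectoenzyme that makes adenosine from AMP, fell to 14.4, 14.9 and 15.6 in resistant cells, against 45.2, 41.6 and 42.6 in parental cells (-1.53 ± 0.13, adjusted p = 0.000121). GPC4, CD24 and NT5E passed under all 16 alternatives that were run gene by gene, which leave out the 2-fold minimum and the restriction by probe set type. Of the 4 tested probe sets of NT5E 3 passed, and their log2 differences ran from -1.53 to 0.27. The counts depended on the probe set read. FOLR1 did not pass at 0.32 by its brightest probe set, but its other one passed at -1.82. TFPI did not pass at 0.14, but 2 of its 5 probe sets passed, with a highest value of 1.32. The count of lower genes was 1 without resistant 1, resistant 2 or parental 1, 2 without resistant 3, and 5 without parental 3.

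Since CEACAM1, CEACAM5, CEACAM6 and CEACAM7 belong to mature epithelial cells of the colon, other genes of mature enterocytes were read as well. Of 25 listed 24 were on the array, but only 7 reached the level needed for the fit. With no filter 4 of the 24 passed an adjusted p of 0.05 in limma as higher and 0 as lower. The 7 tested had a median of 0.98, against 0.02 over all genes. At an adjusted p of 0.05 in limma 5 were higher in resistant cells and 0 lower, against 7.37% and 5.05% of all genes. At an unadjusted p of 0.05 limma gave 7 higher and 0 lower, against 17.3% and 13.5% of all genes. The methods' t-test, also unadjusted, gave 5 and 0, against 14.3% and 10.3%. CA2, a carbonic anhydrase, gave 7.52, 5.96 and 5.25 in resistant cells, against 1.79, 0.781 and 1.07 in parental cells (2.43 ± 0.31, limma adjusted p = 0.0016). DPP4, a brush border peptidase, gave 21.7, 21.9 and 22.6, against 6.31, 6.41 and 6.92 (1.75 ± 0.14, adjusted p = 9.76e-05). KRT20, a keratin of differentiated intestinal cells, gave 361, 387 and 404, against 83.8, 133 and 193 (1.57 ± 0.24, adjusted p = 0.0037). In each the groups were apart. For DPP4 and KRT20, as for CEACAM6 and the brighter probe set of CEACAM5, parental 3 was the nearest to the resistant arrays. For CA2 parental 1 was the nearest. LGALS4, a galectin of the gut, was higher too (0.98 ± 0.25, adjusted p = 0.0351, range over alternatives 0.00201 to 0.236), as was VIL1 (0.80 ± 0.13, limma adjusted p = 0.00504). In both, parental 3 was instead the lowest array. It stood at 60.4 against 108 and 138.5 in the other parental arrays for LGALS4, and at 20.7 against 24.0 and 21.7 for VIL1.

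Of 15 listed partners of CEACAM proteins 9 were tested, and 1 was higher and 0 lower, against 7.37% and 5.05% of all genes. The list is called tail partners, though it was not confined to binders of a tail. At an unadjusted p of 0.05 limma gave 4 higher and 1 lower, against 17.3% and 13.5% of all genes. The methods' t-test, also unadjusted, gave 2 and 0, against 14.3% and 10.3%. The gene that passed after adjustment was LYN, a kinase of the Src family, at 6.14, 6.10 and 5.44 in resistant cells, against 1.31, 1.39 and 1.52 in parental cells (2.07 ± 0.20, limma adjusted p = 0.000316). TGFBR1, a receptor of TGF-beta, had 0.54 ± 0.20 (adjusted p = 0.117), and PTPN6, a phosphatase that docks on the CEACAM1 tail, did not pass at 0.44. Without parental 3 the counts were 2 higher and 2 lower. Of 18 transcription factors known from CEACAM or intestinal promoters 13 were tested, 1 was higher and 1 lower, with a median of -0.05. The shares over all genes were again 7.37% and 5.05%. ETS2 was higher (0.72 ± 0.10, adjusted p = 0.00309) under the same 16 alternatives, though at less than 2-fold, and HIF1A was lower (-0.46 ± 0.12, adjusted p = 0.0388), a call that was lost in 10 of the 16. SP1 and USF2, which bind the boxes named above, were at 0.00 and -0.35 and did not pass. The 3 tested probe sets of USF2 ran from -1.11 to -0.26, and 0 of them passed. USF1 was not among the 13 factors tested. Without parental 3 the count of lower factors was 4, and without any 1 of the other arrays it was 0.

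**Figure D4:**
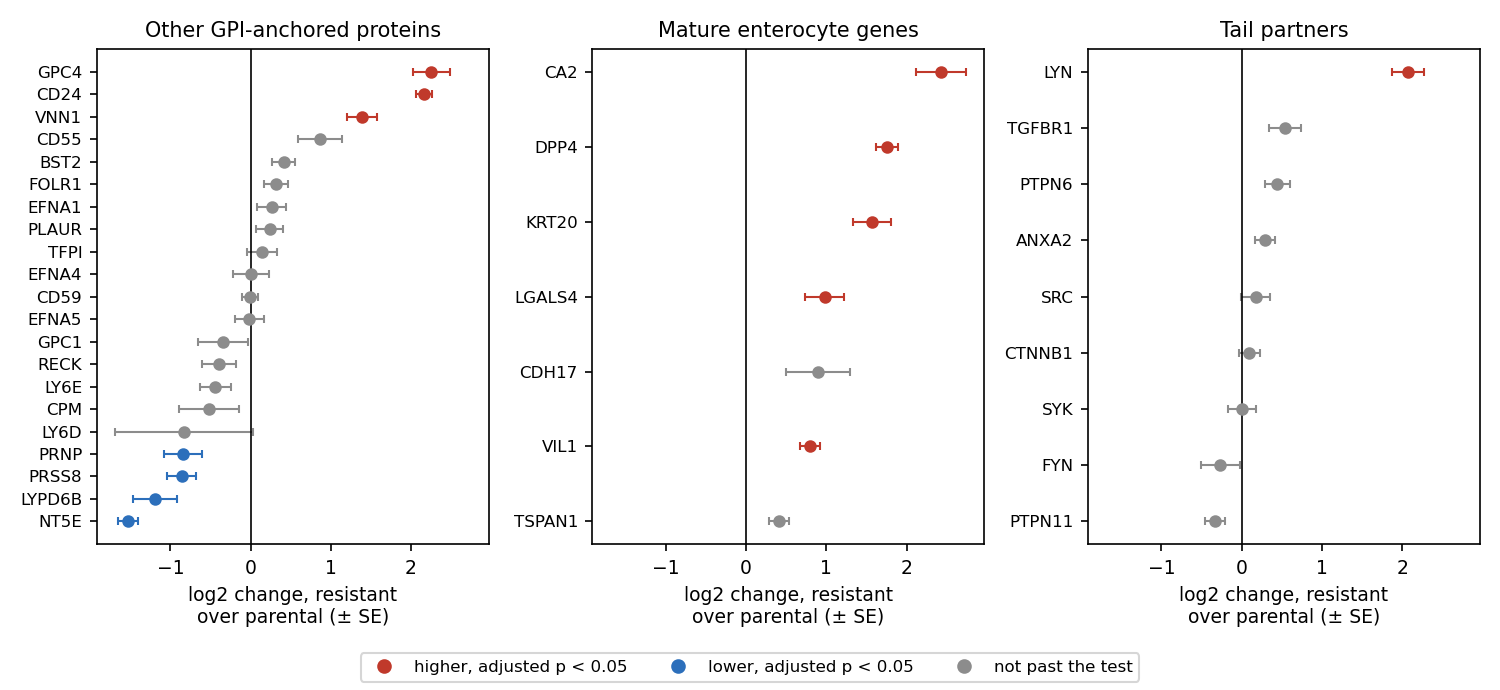
Log2 difference (± limma's moderated SE, n = 3 each), resistant over parental, of tested genes from 3 lists related to the CEACAM family. Red points passed an adjusted p of 0.05 as higher, blue points as lower and grey points did not pass, with GPC4 at 2.25 and NT5E at -1.53 as the ends of the list of GPI-anchored proteins.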

How the data were processed

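RNA from 3 resistant and 3 parental Caco2 samples was hybridised to HG U133 Plus 2.0 arrays. The authors deposited MAS5 signal intensity values per probe set on a linear scale, with MAS5 version and scaling not given in the sources used here. Following the study's methods, intensities were expressed relative to the median of their own array. The study's control strength filter and error model were not reproduced. The 10 values of 0 were set to 0.05 signal units, and 62 control probe sets were left out. Probe sets averaging at least 1 array median (26563 of 54613) were fitted on the log2 scale with limma 3.58.1 in R 4.3.3 (empirical Bayes with intensity trend, two-sided, Benjamini-Hochberg). SEs are the moderated ones of this fit, or of the fit without filter for probe sets below it. The main fit was tested on simulated data. A gene was read from its brightest tested probe set. Gene names came from the platform annotation, updated through RefSeq: 41091 probe sets had 1 symbol, 1801 several and 11721 none. With 3 arrays a group, the number of arrays limits precision, and an exact permutation test cannot go below 0.1. The members and lists were chosen with earlier results of these data known. Named were all members, up to 4 called genes per list with the largest change (the 2 largest where fewer than 2 passed), called and adjacent neighbours, and the 5 most alike profiles, and other genes were added after their values were seen. Alternatives covered scaling, filter, low signals, offset, trend, replicate block, arrays left out, the methods' t-test, 2-fold, probe set type and the mean of probe sets. Promoters were compared with Biopython 1.88.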

Additional observations from a re-analysis of the deposited data

How the results depend on the processing

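The CEACAM5 and CEACAM6 log2 differences ranged over 4.45 to 5.48 and 3.61 to 4.27 with 1 array left out, and CEACAM5 was 4.20 with an offset of 0.5. Member probe sets higher numbered 3 to 7 with 1 array left out, 3 without the intensity trend, 3 with _x_at and _s_at probe sets left out, and 0 under the methods' t-test. The CEACAM3 probe set 208052_x_at and CEACAM19, neither called, changed sign with 1 array left out, and RPS19, not called, with the mean of its probe sets. Without the trend, neighbours numbered 0 higher and 0 lower, anchor synthesis 1 and 0, GPI-anchored genes lower 2 and factors lower 0. The methods' t-test gave 0 and 0 for neighbours, 1 and 0 for anchor synthesis, 1 GPI-anchored gene lower, 2 enterocyte genes higher and 0 factors lower. Asking for 2-fold gave 0 and 0 neighbours, 1 and 0 for anchor synthesis, 2 GPI-anchored genes lower, 3 enterocyte genes higher, and 0 factors either way. With no filter, neighbours lower, anchor synthesis lower and factors lower were 0 each and GPI-anchored genes lower 2. Deposited signals without further scaling gave 1 neighbour lower, 1 anchor synthesis gene higher and 0 factors lower. With _x_at and _s_at probe sets left out 1 neighbour was lower, and with the mean of probe sets 0 anchor synthesis genes were lower. With 1 array left out the ranges, higher then lower, were 0 to 3 and 0 to 10 for neighbours, 0 to 5 and 0 to 2 for anchor synthesis, 3 to 4 and 1 to 5 for GPI-anchored genes, 4 to 6 higher for enterocyte genes, 1 to 2 and 0 to 2 for tail partners, and 0 to 4 lower for factors. Replicate numbers did not pair the samples: same-numbered arrays had deviation correlations of -0.022 to -0.016, and none matched its own number best. With the replicate number as a block, member probe sets higher numbered 4, and neighbours lower, anchor synthesis lower and factors lower 0 each. Signals near the array median limit CEACAM5 in parental cells, CEACAM7, CEACAM3 and the untested members.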
